A study of Mus musculus with 6 samples.

Results

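The first 10 Mb of mouse chromosome 5 carry a cluster of genes that runs from Cdk6 to the multidrug transporter genes Abcb1a, Abcb1b and Abcb4. They were studied here in 4T1.2 cells, a mouse mammary tumour line of BALB/c background, on 6 single-colour arrays with probes 60 bases long. The base-vector group (3 arrays) carried the empty pMSCV retroviral vector, and the IRF7 group (3 arrays) carried the same vector expressing Irf7, the interferon regulatory factor that drives type I interferon genes. Both lines had been selected with puromycin, cloned from single cells and rebuilt as pools of several clones, so all arrays compare a pool of clones with another pool. A difference between the clones that were pooled and a difference made by Irf7 cannot be told apart in this design. The labels describe the replicates as independent experiments on the same lines, and p-values measure the spread between those experiments only.

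The members are the genes whose array probe lies on chromosome 5 with a start below 10 Mb in the mm7 build given by the scanner files, taken with 1 probe per gene name, the one with the highest mean log2 signal. The sterol demethylase gene Cyp51 and the Wnt receptor gene Fzd1, which lie in the stretch, were left out and are given once below. This left 64 members of 27962 gene names in the series, 36 of them with a gene symbol and 28 known only by a clone or transcript name. The 110 probes of the stretch included further probes of the same genes, and every probe of Abcb1a, Abcb1b and Abcb4 was kept, which makes 67 probes. The stretch was picked because its genes were higher in the IRF7 cells of these arrays. The differences between the groups for the members are therefore a description with no test, and nothing is supported by them.

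As background, the ABC transporters of subfamily B pump lipids and drugs across membranes with the energy of ATP. Mice have a pair of P-glycoprotein genes, Abcb1a and Abcb1b, where humans have a single gene, and P-glycoprotein is known for exporting chemotherapy drugs from tumour cells. Abcb4 is the neighbouring gene and moves phosphatidylcholine into bile. Sri, Dbf4, Slc25a40, Rundc3b, Crot and Dmtf1 lie around these transporters on the chromosome. Cdk6, Krit1, Akap9 and the STEAP metalloreductases lie further toward the chromosome's start.

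The probe sequences are shown first because Abcb1a and Abcb1b are close relatives and the values of each gene rest on its own probes. They are written 5′ to 3′ as the scanner files list them, in lower case throughout.
Abcb1a A_51_P155445: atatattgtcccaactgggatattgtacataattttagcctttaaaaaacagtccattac
Abcb1b A_52_P92772: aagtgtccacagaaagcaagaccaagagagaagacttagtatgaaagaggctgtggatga
Abcb1b A_52_P170509: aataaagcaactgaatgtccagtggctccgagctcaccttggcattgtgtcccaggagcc
Abcb1b A_51_P245368: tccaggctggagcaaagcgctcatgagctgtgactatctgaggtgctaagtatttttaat
Abcb4 A_52_P223194: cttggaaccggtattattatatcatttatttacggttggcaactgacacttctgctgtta
Abcb4 A_51_P249118: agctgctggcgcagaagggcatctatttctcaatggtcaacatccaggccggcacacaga
In mm7 these probes lie on the plus strand at chr5:8785623-8785682, chr5:8865089-8865351, chr5:8899085-8899144, chr5:8903569-8903628, chr5:8978600-8978659 and chr5:8996752-8996811, in the order printed. The second one, for Abcb1b, covers a wider stretch than its 60 bases, because the file gives the outer ends of its match. Whether a probe of either gene also binds RNA of the other was not tested.

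All of the RNA samples gave arrays of similar quality, with 54.3 to 59.7% of the 43379 mouse spots well above background. By the file headers, slide 1 (scan 1) held the 3 IRF7 samples together with base-vector replicate 1, and slide 2 held the remaining base-vector samples. Irf7 itself gave processed signals of 246, 195 and 210.5 in base-vector cells and 4486, 4963 and 5012 in IRF7 cells, a log2 difference of 4.28 (SE 0.049, limma adjusted p = 3.23e-07) that matches the labels. Of 8 carcinoma cell markers, Krt8, Krt18, Epcam, Cdh1, Cldn3 and Krt14 were well above background on all 6 arrays, and Krt19 and Cldn4 on none. By limma, Epcam rose by 1.196 (SE 0.17, adjusted p = 0.00171) and Krt8 by 0.15 (SE 0.032, adjusted p = 0.00996) in IRF7 cells, Cldn3 changed by -0.29 (SE 0.053, adjusted p = 0.00456), and the other 3 did not pass the threshold. With normexp background correction, Epcam differed by 0.67, Krt8 by 0.16 and Cldn3 by -0.29. The part of these markers in the results was not tested. Of 8 markers of fibroblasts, endothelium and fat, 4 passed the filter on low signals and 3 of these differed between the groups by limma: Cdh5 was higher in IRF7 cells by 1.06 on the log2 scale, Fabp4, not well above background in base-vector cells, was at least 2.54-fold higher, and Pdgfrb, not well above background in IRF7 cells, was at least 2.85-fold lower. Such bounds set the dim group at the higher of its own signal and the lowest signal well above background on each array. With normexp the log2 differences of Cdh5, Fabp4 and Pdgfrb were 0.70, 0.70 and -0.99. The summed signal of the 4 tested genes was 230 to 281 in base-vector cells and 431 to 467 in IRF7 cells, with Col1a1, Pecam1, Kdr and Adipoq below that level throughout, and its part in the results below was not tested. Of 8 leukocyte markers 4 passed the filter and 0 of those 4 passed limma's adjusted threshold, with 0 at an unadjusted p under 0.05. These 4 summed to 743 to 930 and 904 to 1033 in base-vector and IRF7 cells.

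Of the 64 members, 37 passed the filter, which asked for a signal well above background on at least 3 of the 6 arrays, and 32 did so on all 6. In IRF7 cells the median difference of these 32 was 0.60 on the log2 scale, or 1.51-fold, with quartiles of 0.50 and 0.94. The median of all 14262 genes of the series measured on 6 arrays was 0.02, with quartiles of -0.22 and 0.24. All values are log2 signal minus the array's own 75th percentile, so a difference is relative to the other genes of the array. Fewer cells of a kind and less RNA per cell cannot be told apart in such bulk samples.

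By limma with a Benjamini-Hochberg adjusted threshold of 0.05, 27 of the 37 members tested were called higher and 1 lower, where 31.8% of the 15541 genes tested in the series were called higher and 29.0% lower. The signals of 28 members were higher on every IRF7 array than on any base-vector array, against 35.6% of all genes tested. Because the stretch was chosen on this contrast, nothing is read from these counts. Of the 29 tested members with a symbol on chromosome 5, 25 were called higher, by 0.49 to 3.34, and 4 were not called, among them V1rg10, Tex47 and Elapor2. Tmem243 is counted there under each of its clone names. Of the other 8, which are 7 clone or transcript names and Hspa8, 2 were called higher, 5 were not called, and Hspa8 was called lower.

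The height of the difference was alike on each array. Set against the base-vector mean of each gene, the median of the 32 members was 0.01, -0.04 and 0.02 on the 3 base-vector arrays and 0.63, 0.62 and 0.62 on the 3 IRF7 arrays, while the median of all genes lay between -0.02 and 0.03 on every array. Members above 0 numbered 19, 10 and 18 on the base-vector arrays and 28, 29 and 30 on the IRF7 arrays. No single IRF7 array carried the difference. Within slide 1, where 1 base-vector array stands against 3 IRF7 arrays, the median difference of the 32 was 0.59.

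**Figure D1:**
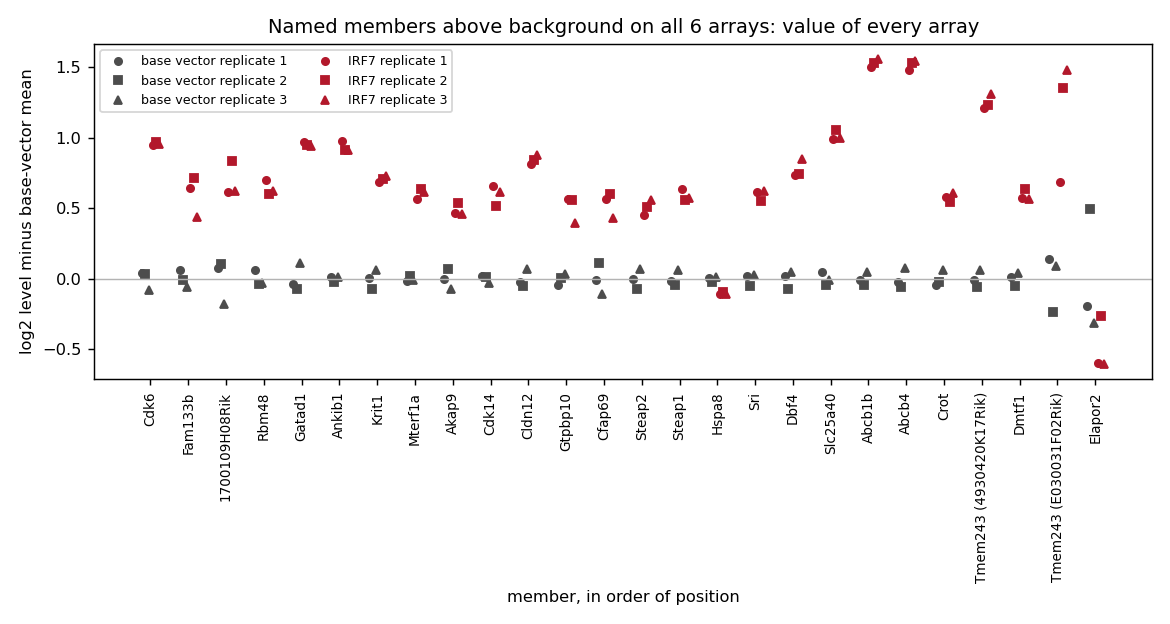
Each point is the scaled log2 level of a named member on 1 array minus the gene's mean over the 3 base-vector arrays (vertical axis, log2 units), for 26 of the 27 named members well above background on all 6 arrays, in order of position; grey is base vector, red is IRF7, and the marker shape is the replicate. The IRF7 points of most genes sit together well above the base-vector points, highest at Abcb1b and Abcb4, while those of Elapor2 overlap and Hspa8 lies just below 0.

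The transporter genes themselves gave the largest differences among members measured on all 6 arrays. The brightest Abcb1b probe, A_51_P245368, gave processed signals of 2694, 2336 and 2531 on the base-vector arrays and 7649.5, 8403 and 8985 on the IRF7 arrays, and its log2 difference was 1.53 (SE 0.035), or 2.88-fold. The other Abcb1b probes gave 875, 720.1 and 789.6 against 2254, 2529.8 and 2772 for A_52_P170509, with a difference of 1.46 (SE 0.050), and 42.5, 42.0 and 32.0 against 115, 154 and 131 for A_52_P92772, with a difference of 1.58 (SE 0.14). On each of the 3 Abcb1b probes the groups did not overlap. A_52_P92772 was well above background on 2 of the 3 base-vector arrays, and its value depended on the background correction: with normexp it differed by 0.73, against 1.501 for A_51_P245368 and 1.38 for A_52_P170509.

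Abcb4 was read by A_51_P249118, with processed signals of 1969.6, 1711 and 1918 on the base-vector arrays and 5587, 6243 and 6603 on the IRF7 arrays. Its difference was 1.52 (SE 0.046), or 2.87-fold, almost that of Abcb1b, its neighbour. The other Abcb4 probe, A_52_P223194, stayed between 6.92 and 8.34 on all arrays and was well above background on none, so it gives no measure of the difference.

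Abcb1a was barely seen. Its only probe gave 17.3, 7.24 and 7.59 in base-vector cells and 22.7, 97.8 and 25.5 in IRF7 cells, and it was well above background only on IRF7 replicate 2. With the base-vector signal set to the lowest signal well above background on each array, Abcb1a was at least 1.02-fold higher, a bound close to no difference. Of the pair of P-glycoprotein genes, then, only Abcb1b was measured in both groups.

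**Figure D2:**
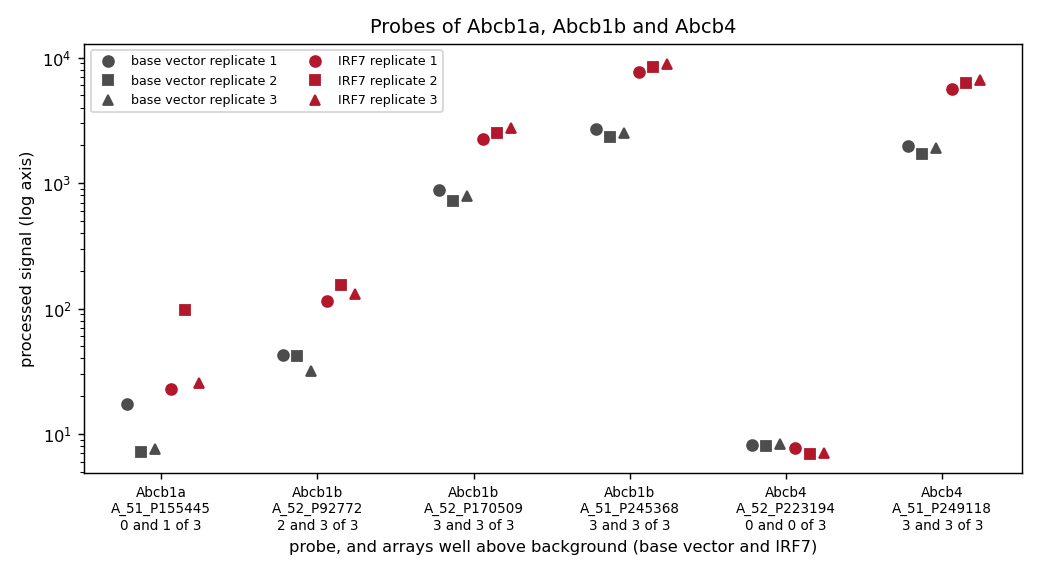
Processed signal of each probe of Abcb1a, Abcb1b and Abcb4 on each of the 6 arrays (vertical log axis), before scaling between arrays, with the number of arrays well above background under each probe name; grey is base vector and red is IRF7. The 3 Abcb1b probes and Abcb4 probe A_51_P249118 show the IRF7 arrays above the base-vector arrays, and Abcb4 probe A_52_P223194 lies near 8 on every array.

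Around the transporters, from Sri to Dmtf1, each named gene that passed the filter was higher in IRF7 cells. Sri, which encodes the calcium-binding protein sorcin (chr5:8102238-8105213), gave processed signals of 11146, 9426 and 10172 on the base-vector arrays and 16822, 17363 and 19137 on the IRF7 arrays, a difference of 0.60 (SE 0.038). Dbf4, the activating subunit of the Cdc7 replication kinase (chr5:8435133-8435192), gave scaled log2 levels of 0.23, 0.14 and 0.26 in base-vector cells and 0.94, 0.95 and 1.06 in IRF7 cells, a difference of 0.78 (SE 0.049). Slc25a40, a carrier of the mitochondrial inner membrane linked to glutathione (chr5:8492202-8492261), gave processed signals of 352, 293 and 307 on the base-vector arrays and 677, 762 and 769 on the IRF7 arrays, a difference of 1.02 (SE 0.037), or 2.02-fold. In all 3 genes the lowest IRF7 array was above the highest base-vector array.

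Rundc3b encodes a RUN domain protein, and its probe (chr5:8528274-8528333) lies between those of Slc25a40 and Abcb1a. Rundc3b had the largest fitted difference of all members. It gave processed signals of 25.2, 20.4 and 44.6 on the base-vector arrays and 304, 335 and 353 on the IRF7 arrays. The fitted difference was 3.34 (SE 0.29), but only base-vector replicate 3 was well above background, the base-vector SD was 0.60, and with normexp background correction the difference was 1.86. The size of this difference is therefore not well measured, though all 3 IRF7 arrays lay above all 3 base-vector arrays.

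Beyond Abcb4, Crot, a peroxisomal carnitine acyltransferase for medium-chain fatty acids (chr5:9004074-9004133), gave processed signals of 1995, 1805 and 1954 on the base-vector arrays and 3079, 3244 and 3539.7 on the IRF7 arrays, a difference of 0.58 (SE 0.04). On the brightest probes its step down from Abcb4 was sharp, since these lie next to each other and differed by 1.52 and 0.58. The second Crot probe gave 0.25, with the groups overlapping. Dmtf1, a Myb-like transcription factor that binds D cyclins (chr5:9157013-9157072), gave scaled log2 levels of -0.20, -0.26 and -0.17 in base-vector cells and 0.37, 0.43 and 0.36 in IRF7 cells, a difference of 0.59 (SE 0.038). Tmem243, a small membrane protein gene, was matched to a pair of clone names. The Dmtf1 probes lie between them in mm7, and whether both belong to a single gene was not tested. The one at chr5:9156300-9156359 gave processed signals of 212, 182 and 201 on the base-vector arrays and 492, 538 and 597 on the IRF7 arrays, a difference of 1.25 (SE 0.046). The one at chr5:9195099-9195158 was named through an older symbol. It gave processed signals of 183, 126 and 161 on the base-vector arrays and 268, 457 and 522 on the IRF7 arrays. Its difference was 1.17 (SE 0.23), with IRF7 replicate 1 below the other IRF7 arrays. Its second probe, placed on the opposite strand, gave 0.44. On the brightest probes, the height of the difference thus varied between neighbouring genes. It was over 1 at Slc25a40, Rundc3b, Abcb1b, Abcb4 and Tmem243, 0.78 at Dbf4 and near 0.6 at Sri, Crot and Dmtf1.

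Nearer the start of the chromosome, the cell cycle kinase gene Cdk6, partner of the D cyclins (chr5:3535293-3535352), gave processed signals of 7132, 6323 and 5974 on the base-vector arrays and 13436, 14654 and 15206 on the IRF7 arrays. Its difference was 0.96 (SE 0.04), or 1.94-fold, with the groups apart, and its other probes gave 1.18 and 1.03. Gatad1, a GATA zinc finger gene of chromatin (chr5:3647356-3647415), gave processed signals of 6075, 5264 and 6096 on the base-vector arrays and 12230.0, 12997 and 13535 on the IRF7 arrays, a difference of 0.96 (SE 0.053). Ankib1, an ankyrin repeat ubiquitin ligase gene (chr5:3696495-3696554), gave processed signals of 986, 856 and 895 on the base-vector arrays and 1928, 1985 and 2079 on the IRF7 arrays, a difference of 0.93 (SE 0.032). By their brightest probes these 3 genes, all near 1.9-fold, were the tallest named members between 3 and 4 Mb. The other Gatad1 probes gave 0.90 and 0.56, and those of Ankib1 gave 1.08 and 0.86.

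Krit1 (chr5:3842848-3846886), the cerebral cavernous malformation gene that acts at endothelial junctions with Rap1, gave scaled log2 levels of -1.94, -2.02 and -1.88 in base-vector cells and -1.26, -1.24 and -1.22 in IRF7 cells, a difference of 0.71 (SE 0.043). Mterf1a (chr5:3897461-3897520), a mitochondrial transcription termination factor gene, gave scaled log2 levels of -3.06, -3.02 and -3.05 in base-vector cells and -2.48, -2.41 and -2.43 in IRF7 cells, a difference of 0.61 (SE 0.031). Rbm48 (chr5:3601278-3601337), an RNA-binding protein gene of minor intron splicing, gave scaled log2 levels of -2.74, -2.84 and -2.83 in base-vector cells and -2.10, -2.20 and -2.18 in IRF7 cells, a difference of 0.64 (SE 0.044). In these genes, too, the groups did not overlap. Fam133b (chr5:3565687-3567086) differed by 0.60 (SE 0.078), and 1700109H08Rik (chr5:3588215-3590266) by 0.69 (SE 0.10), both without overlap.

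V1rg10, a vomeronasal receptor gene nearest the chromosome's start (chr5:3006299-3006358), gave scaled log2 levels of -4.90, -5.25 and -4.61 in base-vector cells and -4.58, -4.52 and -5.05 in IRF7 cells, a difference of 0.20 (SE 0.21). Its groups overlapped, and it was well above background on 2 of the 3 base-vector arrays and on all 3 IRF7 arrays.

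Between 4 and 6 Mb, the differences were a little lower. Akap9, a large centrosomal and Golgi anchor of protein kinase A (chr5:4083962-4085712), gave processed signals of 1682, 1565 and 1449 on the base-vector arrays and 2325, 2627 and 2604 on the IRF7 arrays, a difference of 0.49 (SE 0.047). Cdk14, a kinase that acts with cyclin Y on Wnt receptors (chr5:4809831-4809890), gave processed signals of 5709.6, 5045 and 4992 on the base-vector arrays and 8909, 8705 and 9750.5 on the IRF7 arrays, a difference of 0.60 (SE 0.045). Cldn12, a claudin of tight junctions (chr5:5511508-5511567), gave processed signals of 845, 737 and 815 on the base-vector arrays and 1510.1, 1655 and 1778 on the IRF7 arrays, a difference of 0.84 (SE 0.041), the tallest named gene of these. On the brightest probe of each, every IRF7 array was above every base-vector array. The other Akap9 probes gave 0.64 and 0.40. Another Cdk14 probe past the filter gave 0.45, with the groups overlapping.

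The metalloreductase genes Steap1 and Steap2, which reduce iron and copper at membranes, lie side by side. Steap1 (chr5:5742375-5742434) gave processed signals of 6782, 5903 and 6484 on the base-vector arrays and 10692, 10888 and 11494 on the IRF7 arrays, a difference of 0.59 (SE 0.042), and its second probe gave 0.48. Steap2 (chr5:5678176-5678235) gave processed signals of 1308, 1111 and 1251 on the base-vector arrays and 1797, 2012 and 2183 on the IRF7 arrays, a difference of 0.51 (SE 0.05), and its second probe gave 0.38. Steap4, which lies further along, was well above background on no array. Gtpbp10, a mitochondrial ribosome GTPase gene (chr5:5561256-5561315), differed by 0.51 (SE 0.056), and Cfap69, a gene of sperm flagella and cilia (chr5:5587196-5587255), by 0.54 (SE 0.073), both without overlap.

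Hspa8 is the single called member that was lower. It encodes the constitutive heat shock protein of the Hsp70 family, and its probe (chr5:5787852-5787911) gave scaled log2 levels of 7.19, 7.16 and 7.19 in base-vector cells and 7.07, 7.09 and 7.07 in IRF7 cells, a difference of -0.10 (SE 0.026). Without scaling between arrays the sign turned, to 0.099. The reference tables place the Hspa8 gene on chromosome 9, whereas the array's mm7 annotation places this probe on chromosome 5. Tex47, a testis gene (chr5:7343207-7343266), overlapped with a difference of 0.11 (SE 0.12).

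The difference did not climb steadily with position. Spearman's rho between start and log2 difference was -0.12 over the 32 members measured on all arrays and -0.01 over the 37 tested, given as a description of genes that share the same 6 arrays. In steps of 1 Mb, the median over members on all 6 arrays was 0.69 between 3 and 4 Mb (n = 9), 0.54 between 4 and 5 Mb (n = 4), 0.52 between 5 and 6 Mb (n = 6), 0.90 between 8 and 9 Mb (n = 6) and 0.58 between 9 and 10 Mb (n = 7). Between 6 and 8 Mb no member was measured on all 6 arrays, and Tex47 was the only one tested. Most tested members between Cdk6 and Steap1 and between Sri and Tmem243 were thus higher in IRF7 cells, whereas V1rg10, Tex47 and Elapor2, at the start, in the middle and at the end, were not called.

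**Figure D3:**
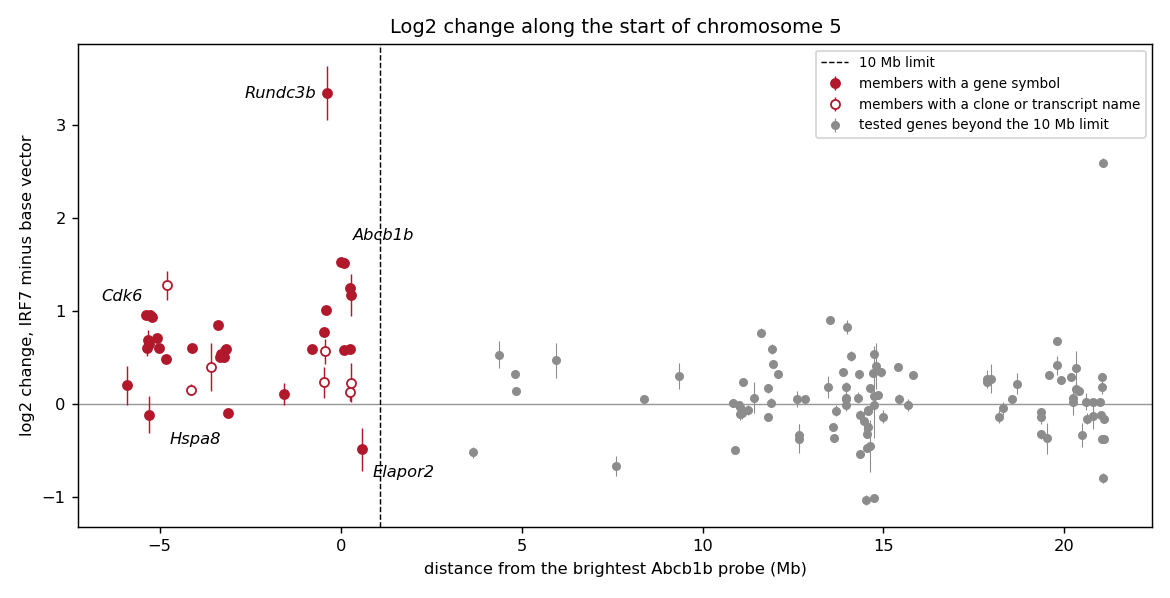
Log2 difference, IRF7 minus base vector, with its standard error (vertical axis) against the distance in Mb from the brightest Abcb1b probe (horizontal axis), for the 37 tested members in red, open where only a clone or transcript name is known, and for tested genes beyond 10 Mb in grey. Members lie mostly between 0.4 and 1.5, with Rundc3b at 3.34 and Elapor2 at -0.49, and genes beyond the dashed limit scatter around 0.

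Members with a symbol and clone names differed in height. Over those on all 6 arrays, the median was 0.61 for the 27 with a symbol and 0.23 for the 5 clone or transcript names. The tallest clone was AF039839 (chr5:4105415-4105474), which gave processed signals of 149.6, 131 and 93.3 on the base-vector arrays and 303, 356 and 365 on the IRF7 arrays and differed by 1.28 (SE 0.15). It lies next to Akap9 and Cyp51, and no gene name was matched to it. Genes read from the plus strand (n = 14) had a median of 0.70 and those from the minus strand (n = 18) of 0.59. The base-vector level of a gene and its difference had a Spearman's rho of -0.03 over the 32 members, again as a description.

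Several probes of a gene mostly gave the same direction. In 19 members with at least 2 probes past the filter, 17 had all of their probes above 0, and the range between the probes of a gene had a median of 0.17. Among the exceptions was Hspa8, whose probes were both below 0. Krit1 spread from 0.13 to 0.71.

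Of the 27 members that did not pass the filter, 21 were well above background on no array and 6 on 1 or 2 arrays. The named ones at 0 arrays were Tmbim7, Lrrd1, Steap4 and the cell adhesion gene Adam22, and the glutamate receptor gene Grm3 was well above background on 1 IRF7 array. On the 21, the processed signals were 5.60 to 32.2 and the median fitted difference was -0.37. That is a difference between signals none of which was well above background, and it says nothing of RNA. The members that passed are therefore the measured share of the stretch and not all of it.

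The stretch had its limit where probes were sparse. Just inside 10 Mb, the transcript AK030508 differed by 0.23 (SE 0.21) with overlap, Tmem243 by 1.17, and Elapor2, an endosome and lysosome regulator gene, by -0.49 (SE 0.23). Elapor2 had scaled log2 levels of -3.49, -2.81 and -3.61 in base-vector cells and -3.90, -3.57 and -3.91 in IRF7 cells, so the groups overlapped. Just outside, the next tested genes lay at chr5:12562655-12562714 (LOC625989, -0.52), chr5:13277352-13277411 (Speer3, 0.53) and chr5:13734861-13734920 (Sema3e, a semaphorin, 0.32). The last member called higher was thus the Tmem243 entry at chr5:9195099-9195158, and no gene was tested between Elapor2 and LOC625989.

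Further along the chromosome, the medians were near that of all genes. The 10 to 20 Mb window had a median of 0.00 over 14 genes, with 3 called higher and 3 lower, and the 20 to 30 Mb window one of 0.05 over 87 genes. Across chromosome 5 beyond 10 Mb, 919 tested genes had a median of 0.07, with 345 called higher and 171 lower. Among the 231 windows of 10 Mb in the genome with at least 20 tested genes, the first window of chromosome 5 had the highest median, and the next were on chromosome 15 at 60 to 70 Mb (0.46), chromosome 3 at 140 to 150 Mb (0.36) and chromosome 19 at 30 to 40 Mb (0.36). The lowest was on chromosome 7 at 60 to 70 Mb (-0.55). These windows share the contrast on which the stretch was chosen and are given for scale only.

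**Figure D4:**
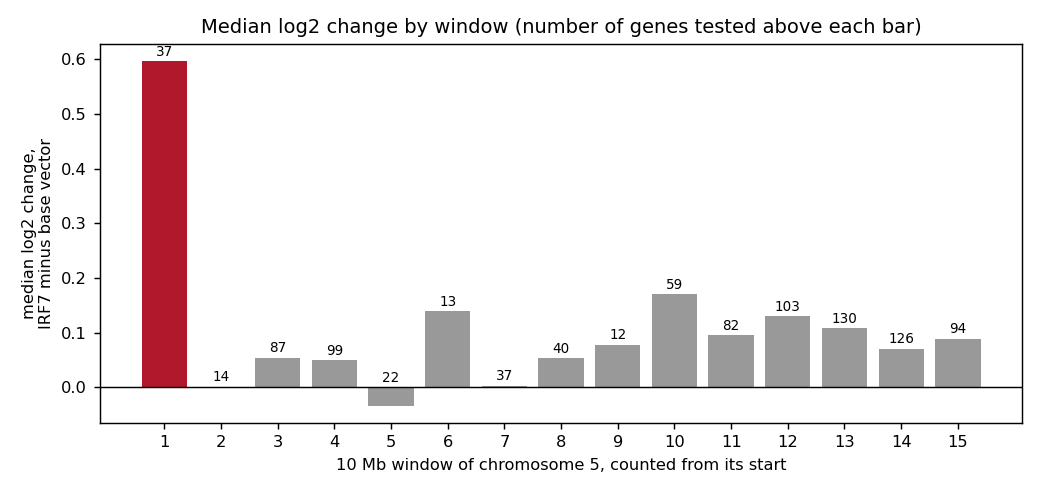
Median log2 difference, IRF7 minus base vector (vertical axis), of the tested genes in each 10 Mb window of chromosome 5 with at least 10 such genes (horizontal axis, windows counted from the chromosome's start), with the number of genes above each bar. The first bar stands at 0.60 and the others between -0.03 and 0.17.

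The genes left out behaved as follows. Cyp51, which lies beside Akap9, was higher by 0.90 (SE 0.027), and its other probes gave 1.07 and 0.93. Fzd1 was well above background in IRF7 cells alone, where it was at least 7.28-fold higher.

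Promoters of the stretch are shown for genes where the difference was tall, with matches to the GC box (GGGCGG) and the CCAAT box (CCAAT) in capitals on either strand. Each runs from 250 bases before to 50 bases after the annotated start, from RefSeq on GRCm38.p6, at chr5:8422588-8422887 (plus strand), chr5:8622903-8623202 (minus), chr5:8797897-8798196 (plus) and chr5:8893471-8893770 (plus). These coordinates are of another build than the probes' mm7 and are not to be set beside them.
Slc25a40: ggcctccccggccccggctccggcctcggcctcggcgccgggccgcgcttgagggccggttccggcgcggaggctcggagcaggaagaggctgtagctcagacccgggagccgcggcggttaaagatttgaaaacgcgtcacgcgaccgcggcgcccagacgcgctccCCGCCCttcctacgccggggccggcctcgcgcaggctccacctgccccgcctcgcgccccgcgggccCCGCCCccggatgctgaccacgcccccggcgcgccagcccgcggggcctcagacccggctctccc
Rundc3b: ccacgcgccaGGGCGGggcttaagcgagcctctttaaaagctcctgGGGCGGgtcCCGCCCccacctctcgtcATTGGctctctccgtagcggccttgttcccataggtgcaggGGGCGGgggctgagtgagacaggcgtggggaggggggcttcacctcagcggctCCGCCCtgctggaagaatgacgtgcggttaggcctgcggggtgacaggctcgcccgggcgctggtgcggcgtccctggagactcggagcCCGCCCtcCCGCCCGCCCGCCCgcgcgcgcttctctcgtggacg
Abcb1b: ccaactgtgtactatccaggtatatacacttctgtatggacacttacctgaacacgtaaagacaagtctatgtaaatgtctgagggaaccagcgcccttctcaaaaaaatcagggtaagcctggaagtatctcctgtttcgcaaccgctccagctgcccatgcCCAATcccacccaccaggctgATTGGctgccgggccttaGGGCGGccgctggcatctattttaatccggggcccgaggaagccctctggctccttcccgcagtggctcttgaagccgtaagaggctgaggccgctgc
Abcb4: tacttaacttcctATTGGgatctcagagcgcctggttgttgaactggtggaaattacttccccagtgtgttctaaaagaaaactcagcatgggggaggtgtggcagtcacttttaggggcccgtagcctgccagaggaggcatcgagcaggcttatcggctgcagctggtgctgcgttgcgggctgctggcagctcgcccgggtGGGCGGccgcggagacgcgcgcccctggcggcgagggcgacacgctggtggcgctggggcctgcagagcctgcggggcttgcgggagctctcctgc
The Rundc3b window held 9 GC boxes, with 2 pairs of matches that overlap, and 1 CCAAT box, Abcb1b held 1 and 2, Abcb4 held 1 and 1, and Slc25a40 held 2 GC boxes. The Abcb1a window, at 40.3% GC, held no match to any motif searched.

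The start sites of some neighbours lie back to back. The Slc25a40 window printed above shares 221 bases with that of Dbf4 on the other strand, the start sites lying 122 bases apart, and their differences were 1.02 and 0.78. The windows of Ankib1 and Krit1 share 140 or 156 bases, with start sites 41 or 57 bases apart, and their differences were 0.93 and 0.71. In each of these head-to-head pairs both genes were called higher in IRF7 cells. So were 25 of the 29 tested members with a symbol on chromosome 5, and nothing is read from the pairs.

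RefSeq windows were matched for 31 of the 35 distinct symbols, 36 windows in all, because some genes have several starts. For the 25 tested genes among them (30 windows), GGGCGG on either strand was found in 66.7% of windows against 61.1% of the windows of all genes tested in the series and 35.7% of all windows. CCAAT was found in 43.3%, against 37.7% of tested genes and 37.4% of all, and TATAAA in 6.67%, against 7.75% and 13.6%. Interferon regulatory factors bind the core of the interferon-stimulated response element, searched as GAAA, any 2 bases and GAAA again on either strand. It was found in 0 of the 36 windows, against 3.44% of all windows. For tested genes it was in 0 of the 30 windows of members, against 2.95% of the windows of all genes tested. With so few windows, some of which overlap, 0 matches is near the share of all windows, and nothing is read from it. A missing match says only that these letters are not in these bases, and a match is no binding site. The median GC content of the 36 windows was 64.3%, against 52.7% of all windows. The GC content of the windows of all genes tested was not computed, so this difference is not read as a trait of the stretch.

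Genes elsewhere in the genome that act with the members moved in both directions. Of 81 such genes in 11 lists, 75 were tested, and 35 were called higher and 26 lower by limma, with a median of 0.09. They lie outside the stretch and were not used to choose it, but the lists were drawn up with earlier results of these arrays known. Over all genes tested, 60.8% were called, 31.8% higher and 29.0% lower. The counts of each list below stand beside these shares, and no list was tested as a set. Whether a listed gene moved together with its neighbours on its own chromosome was not tested.

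Of the 8 other genes of ABC subfamily B, 3 rose and 4 fell, with a median of -0.10. The lysosomal peptide transporter Abcb9 rose by 0.84 (SE 0.046, limma adjusted p = 3.98e-05), and the antigen peptide transporter Tap1, an interferon target, rose by 0.76 (SE 0.036, limma adjusted p = 2.40e-05). The mitochondrial Abcb8 changed by -0.47 (SE 0.034, limma adjusted p = 1.11e-04). Of 5 tested multidrug transporters of other subfamilies, 3 rose and 2 fell: the organic anion exporter Abcc3 changed by -0.60 (SE 0.035, limma adjusted p = 5.30e-05), the nucleotide exporter Abcc4 by 0.35 (SE 0.042, limma adjusted p = 8.75e-04), and the breast cancer resistance protein gene Abcg2 by 0.25 (SE 0.035, limma adjusted p = 0.00151).

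Around Cdk6, the list of D cyclins, Cdk4, Rb1 and the kinase inhibitors held 9 tested genes, of which 3 rose and 4 fell. Ccnd3, a D cyclin, rose by 1.14 (SE 0.027, limma adjusted p = 2.70e-06), and Cdkn1a, the inhibitor p21, by 1.46 (SE 0.041, limma adjusted p = 4.49e-06). Cdkn1b, the inhibitor p27, changed by -0.44 (SE 0.048, limma adjusted p = 5.89e-04). Around Dbf4, 9 of 10 genes of the Cdc7 kinase, the MCM helicase and its loaders rose and none fell, with a median of 0.26. They included the loader Cdc6 by 0.54 (SE 0.039, limma adjusted p = 1.12e-04), the helicase subunit Mcm3 by 0.45 (SE 0.043, limma adjusted p = 3.48e-04) and the kinase Cdc7 itself by 0.26 (SE 0.028, limma adjusted p = 5.36e-04). With each array's median in place of its 75th percentile, 36 rather than 61 of the 75 genes of all lists were called. The share called over all genes tested also fell, from 60.8% to 41.3%.

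Around Krit1, 5 of 8 genes rose and 1 fell. The transcription factor gene Klf4, which the cavernous malformation complex restrains in endothelium, rose by 1.30 (SE 0.037, limma adjusted p = 4.79e-06), Itgb1bp1, which binds Krit1, by 0.24 (SE 0.033, limma adjusted p = 0.00134), and Rap1a by 0.40 (SE 0.063, limma adjusted p = 0.00245). The gene that fell was Klf2, the other transcription factor gene held down by the same complex, with a change of -0.34 (SE 0.065, limma adjusted p = 0.00536). Around Cdk14, the cyclin genes Ccny and Ccnyl1 rose by 0.36 (SE 0.038, limma adjusted p = 4.91e-04) and 0.31 (SE 0.044, limma adjusted p = 0.00168), and the Wnt co-receptor gene Lrp6 changed by -0.31 (SE 0.056, limma adjusted p = 0.00435). Around Akap9, 5 of 9 tested genes of protein kinase A anchoring rose and 2 fell: the catalytic subunit Prkacb rose by 0.62 (SE 0.041, limma adjusted p = 7.99e-05), the regulatory subunit Prkar1a by 0.52 (SE 0.037, limma adjusted p = 1.13e-04), and the anchor Akap12 changed by -0.87 (SE 0.037, limma adjusted p = 1.62e-05).

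Among genes of the peroxisome, the organelle in which Crot works, 4 of 14 tested genes of import and growth rose and 7 fell, with a median of -0.13. Pex13 changed by -0.67 (SE 0.037, limma adjusted p = 4.24e-05), Pex11a by -0.51 (SE 0.03, limma adjusted p = 5.14e-05) and Pex16 by -0.46 (SE 0.042, limma adjusted p = 2.65e-04). Of the 5 other carnitine acyltransferases beside Crot, 4 fell and none rose: the outer membrane enzyme Cpt1a changed by -0.64 (SE 0.033, limma adjusted p = 3.45e-05), its brain form Cpt1c by -1.71 (SE 0.068, limma adjusted p = 1.35e-05), and Crat by -0.15 (SE 0.03, limma adjusted p = 0.00598), which without scaling read 0.047. Around Sri, the penta-EF-hand gene Pdcd6 rose by 0.42 (SE 0.035, limma adjusted p = 1.87e-04) and the calpain small subunit Capns1 changed by -0.47 (SE 0.026, limma adjusted p = 4.28e-05). By position, Capns1 falls between 20 and 30 Mb on chromosome 7. This window held 183 genes past the filter, 138 called lower and 11 higher, and its median was -0.47. Prkacb falls in the chromosome 3 window given above (140 to 150 Mb, 0.36), with 26 of 37 genes called higher and 5 lower. Abcb8, which changed by -0.47, falls in the 20 to 30 Mb window of chromosome 5, with a median of 0.05. Steap3, the other STEAP gene, did not pass the filter.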

How the data were processed

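Total RNA of 6 samples was labelled with Cy3 and hybridised to single-colour Agilent arrays, per the labels. Images were quantified in Agilent Feature Extraction 9.5.3.1, per the submitters' processing notes. The intensity of a spot in the deposited scanner output is linear, with background already subtracted and no scaling across arrays, per the file headers. The authors' deposited value table held the same intensity values (largest difference 0). Of 45018 spots, 1639 controls and 111 to 121 outlier spots per array were left out.

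Spots of a probe were averaged, log2 intensity was scaled to each array's 75th percentile, and the brightest probe stood for each gene name. The 15541 genes that were well above background on 3 or more of the 6 arrays were fitted together with limma 3.58.1 in R 4.3.3 (lmFit, eBayes, Benjamini-Hochberg over all of them, threshold 0.05), without a block. The fit was also run on simulated data with known changes, and the outcome is not given here. Probe positions are mm7, per the file headers. Of 41174 probes, 23082 were named through their accession in the RefSeq tables, 6582 by symbol, 3073 by an older symbol, and 8437 kept the file's name. No depth applies to arrays, where their number limits the precision.

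The members and lists were chosen with earlier results of these data known. Named were Irf7, every tested member with a symbol (1 of them is not reported here), every Abcb1a, Abcb1b and Abcb4 probe, the 3 genes on each side of 10 Mb, and up to 3 called genes per partner list with the smallest p. AF039839, Klf2 and the markers with a value were named after their values were seen. Alternatives covered scaling, background, variance model, slide, replicate number, single arrays, the filter and the probe. Same-numbered arrays deviated together with correlations of 0.039, 0.18 and 0.23, and arrays with different numbers gave -0.19 to 0.004. The labels share only a number, and the main fit left the samples unpaired. Whether the numbers pair the samples is not settled.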

Additional observations from a re-analysis of the deposited data

How the results depend on the processing

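The calls rest on 6 arrays, and probes near background give differences that depend on the background correction. The median difference of the tested members, 0.60, was 0.55 with each array's median as scale, 0.56 with quantile normalization, 0.80 without scaling, 0.56 with normexp, 0.43 without the filter on dim probes and 0.57 with the second brightest probe. Without scaling the median of all genes moved by 0.20 and 79.1% of called genes were higher, against 52.3%. Without the filter the median of all genes moved by -0.15 and 32.7% were higher, with 14633 calls against 9456. Members minus all genes stayed between 0.55 and 0.60 under these settings. Leaving out single arrays gave member medians of 0.58 to 0.60, and 8313 to 9137 calls over all genes. The rho with position was 0.071 with normexp, 0.077 with slide as a fixed block and on slide 1 alone, 0.13 without the filter, -0.12 on all 6 arrays, -0.15 with the second brightest probe, -0.023 to 0.055 without single arrays, and 0.17 with only genes matched to chromosome 5, an alternative chosen after seeing the data. The median of the 4 Abcb probes, 1.52, was 1.48 with each array's median as scale, 1.72 without scaling, 1.43 with normexp and 1.497 to 1.541 without single arrays. The 10 to 20 Mb window was -0.041 with each array's median, 0.20 without scaling and -0.30 without the filter. Over all genes, 6421 were called with each array's median and 7134 with slide as a fixed block, against 9456. The partner genes called, 61, fell to 36 with each array's median, and were 57 to 61 without single arrays. Without scaling the sign turned for Hspa8 (0.099), Cdk4 (0.023), Pex2 (0.056), Pex26 (0.021) and Crat (0.047). The cause was not tested for these changes. With the replicate block, 9816 genes were called against 9456, and the member median with the replicate block was 0.60; the labels share only a number.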
